A study of Danio rerio with 4 samples.

Results

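The apelin, chemokine and sphingosine-1-phosphate (S1P) signals that steer mesoderm and endoderm cells were examined through 8 genes. They were chosen by name, as the receptor genes aplnra, aplnrb, cxcr4a, cxcr4b and s1pr2 and the ligand genes apela, cxcl12a and cxcl12b. All 8 had a row among the 24235 genes of the deposited table. Zebrafish embryos were sampled whole at the 6-somite stage, and their RNA was compared between wild-type AB embryos (2 libraries) and embryos homozygous for the npas4l bns297 allele (2 libraries). Both groups were raised in E3 medium at 28°C and carried no other named treatment. npas4l encodes a bHLH-PAS transcription factor needed for most endothelial and blood cells, and the mutation is present in every cell of the embryo. The labels give neither the number of embryos nor the clutches behind a library, so the spread between these libraries may be technical. For the same reason, a difference between genotypes cannot be told apart from a difference between clutches. The p-values take the spread of each gene mostly from other genes of similar value.

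Apela, a short secreted peptide also called Toddler or Elabela, is the early ligand of the G-protein-coupled receptors Aplnra and Aplnrb. In zebrafish it promotes the migration of mesendoderm cells during gastrulation, the apelin receptors are needed for heart progenitors to form, and apelin signalling later helps to bring endothelial precursors to the midline. Cxcl12 chemokines signal through Cxcr4 receptors. Cxcl12b from mesoderm holds Cxcr4a-bearing endoderm to it, while Cxcl12a guides Cxcr4b-bearing germ cells and the lateral line primordium. S1pr2, known as Miles apart, is a receptor for the lipid S1P and is required for the heart primordia to meet at the midline.

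The test asked which of these RNAs differed between the mutant and wild-type libraries, and none passed it. Receptor means differed in direction, with 0 inside every interval. The mutant mean was 120% of wild type for aplnra, 75.3% for s1pr2 and 74.7% for aplnrb. The genes cxcr4a and cxcr4b differed by less than their replicates did. Of the ligands, apela had both mutant libraries under the wild-type pair, and cxcl12a and cxcl12b overlapped between the groups. Values below are the deposited numbers, gene counts that the authors scaled by 1 factor per library and rounded, called normalised values here. Differences were tested with limma-trend on log2(value + 1) over the 16653 genes whose mean value reached 10, with Benjamini-Hochberg adjustment over all of them, and a gene passed at an adjusted p under 0.05. All 8 genes were above that minimum. 0 of the 8 passed, where 0.048% of all genes tested did, and 0 of the 8 had an unadjusted p under 0.05, where 3.75% of all genes did. With limma-voom 0 of the 8 passed as well, and the lowest unadjusted p was 0.0718, for aplnra.

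The normalised values summed to between 7272902 and 8237748 per library, and the spacing of the values put 1 read at 0.898 to 1.089 of a normalised unit. Mutant replicate 2 differed in kind from the rest. Only 299 genes had a 0 there, where the others had 2444 to 3000, and among the 10576 genes whose mean value reached 50 it lay below mutant replicate 1 by a median of 0.13 on the log2 scale. Mutant replicate 2 was the lowest of the 4 libraries for 4 of the 8 guidance genes and the highest for 1. The same counts were not taken over all genes tested, so these cannot be read as a trait of the guidance genes.

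**Figure D1:**
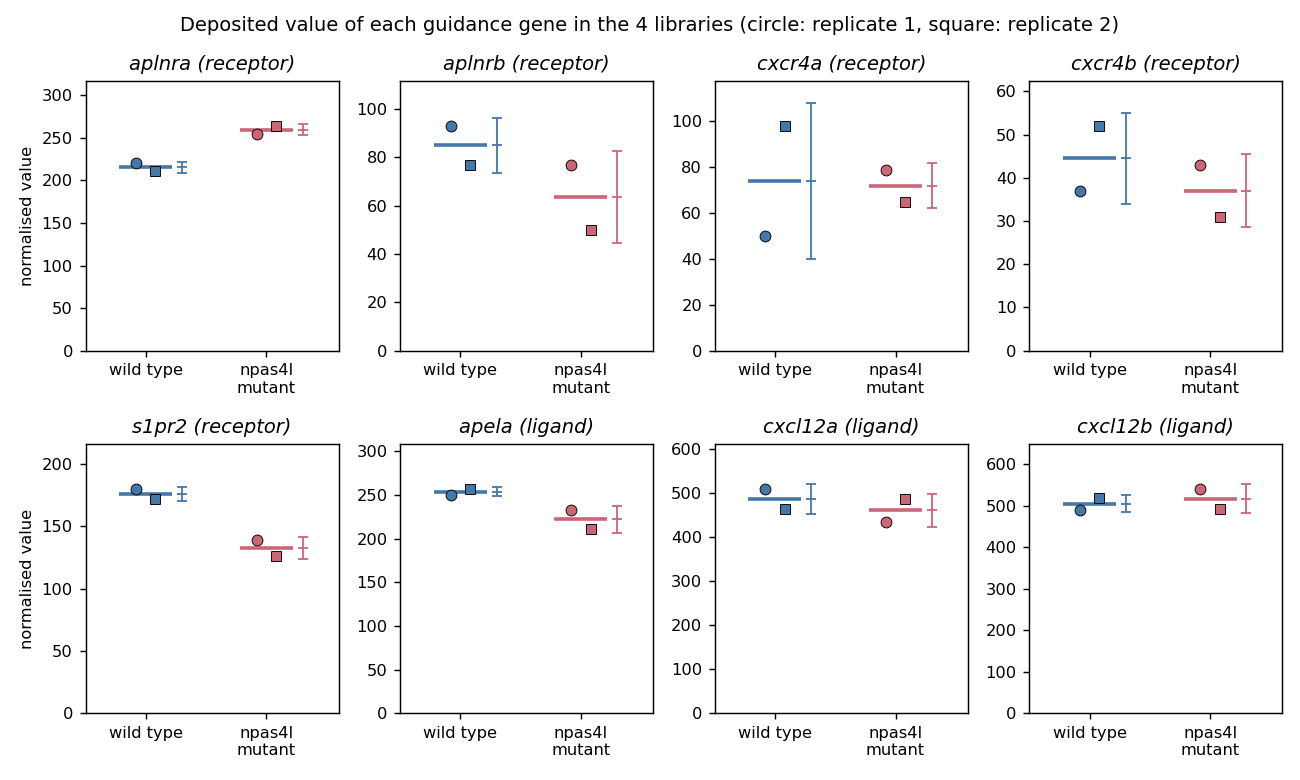
Normalised value (y axis, starting at 0) of each of the 8 guidance genes in the 2 wild-type (blue) and 2 npas4l mutant (red) libraries. Thick lines are group means and the bars beside them the SD of 2 libraries. The groups of aplnra, s1pr2 and apela are separated, those of aplnrb touch at 77, and those of the other 4 genes overlap on this scale; with upper-quartile or median-ratio scaling aplnrb and cxcl12b are separated too.

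The estimates for the apelin receptor genes differed in direction, with 0 inside both intervals. aplnra (ENSDARG00000002172, chromosome 8, 40286105 to 40287812, minus strand, GRCz10) stood at 220 and 211 in the wild-type pair against 255 and 264 in the mutant pair, replicate 1 before replicate 2 here and below. Both mutant libraries lay above both wild-type libraries, and the 2 libraries of each group were close to each other. Counting error alone gave 95% exact Poisson intervals of 191 to 252 in wild-type replicate 1 and 225 to 288 in mutant replicate 1. These overlapped, as did those of every other mutant and wild-type pair of libraries for aplnra. Overlap of such intervals is not a test of a difference. The means were 215.5 ± 6.36 in wild type and 259.5 ± 6.36 in mutants (mean ± SD over n = 2 libraries per group throughout), so mutants were at 120% of wild type. The log2 fold change was 0.27 ± 0.18 (SE), with a 95% confidence interval of -0.097 to 0.63 and a limma adjusted p of 1 (unadjusted p = 0.148). It was the 1 guidance gene that was highest in mutant replicate 2, and without that library its log2 fold change was 0.24. Its limma unadjusted p was 0.0601 with upper-quartile scaling and 0.0573 with median-ratio scaling, at log2 fold changes of 0.32 in both.

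aplnrb (ENSDARG00000036670, chromosome 10, 8670575 to 8672661, plus strand) encodes a second apelin receptor, known from the grinch mutant, which forms few or no heart muscle cells. It stood at 93 and 77 in the wild-type pair against 77 and 50 in the mutant pair. Mutant replicate 1 matched the lower wild-type library on the deposited scale (with upper-quartile and median-ratio scaling the groups separated), and the lower mean of mutants, 63.5 ± 19.1 against 85.0 ± 11.3, came mostly from mutant replicate 2. The log2 fold change was -0.44 ± 0.30, the largest in size among the 8 genes, with an interval of -1.03 to 0.15 and a limma adjusted p of 1 (unadjusted p = 0.143). Without mutant replicate 2 it was -0.13, and without mutant replicate 1 it was -0.75. aplnrb rested on an estimated 50 to 86 reads per library. The 95% exact Poisson interval of mutant replicate 2, 37.4 to 66.5, overlapped that of wild-type replicate 2, 61.8 to 95.4. It did not overlap that of wild-type replicate 1, 73.9 to 114.

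The ratio of aplnra to aplnrb, which no scaling of the libraries can change, was 2.37 and 2.74 in the wild-type pair against 3.31 and 5.28 in the mutant pair. It was higher in both mutant libraries, but by different amounts, with means of 2.55 ± 0.265 and 4.30 ± 1.39. With 2 libraries against 2, an exact two-sided permutation test cannot give a p below 0.333, so no ratio was tested. How often ratios of other genes separate was not taken, so a separated ratio, here and below, has no share to be set against.

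apela (ENSDARG00000094729, chromosome 1, 18975010 to 18980963, minus strand), the ligand gene of both receptors, stood at 250 and 257 in the wild-type pair against 233 and 211 in the mutant pair. Both mutant libraries were lower, at 222 ± 15.6 against 253.5 ± 4.95, or 87.6% of wild type. The log2 fold change was -0.19 ± 0.18, with an interval of -0.56 to 0.17 and a limma adjusted p of 1 (unadjusted p = 0.297), and it was -0.12 without mutant replicate 2. aplnra over apela was 0.880 and 0.821 in the wild-type pair against 1.09 and 1.25 in the mutant pair, higher in both mutant libraries. aplnrb over apela was 0.372 and 0.2996 in the wild-type pair against 0.330 and 0.237 in the mutant pair, where the groups overlapped.

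s1pr2 (ENSDARG00000036548, chromosome 3, 54361413 to 54414583, minus strand) had the lowest unadjusted p of the 8 genes on the deposited scale, though aplnra had it with limma-voom, upper-quartile and median-ratio scaling, and aplnrb without mutant replicate 1. It stood at 180 and 172 in the wild-type pair against 139 and 126 in the mutant pair. Both mutant libraries were below both wild-type libraries, and the gap of 33 between the nearest libraries was larger than the difference within either group. The means were 176 ± 5.66 and 132.5 ± 9.19, so mutants were at 75.3% of wild type. The log2 fold change was -0.41 ± 0.21, with an interval of -0.83 to 0.014, a limma unadjusted p of 0.0579 and an adjusted p of 1. Its sign held without each library in turn, with values from -0.48 to -0.34, the smallest in size being that without mutant replicate 2.

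Groups that do not overlap are common in this table. They occurred in 3 of the 8 guidance genes (aplnra higher, s1pr2 and apela lower), or 37.5%, and in 29.4% of all genes tested. These 3 genes were separated with upper-quartile and median-ratio scaling too, and aplnrb (lower) and cxcl12b (higher) joined them. The share over all genes tested was taken on the deposited scale only. Separations seen only with the other scalings, here and below, therefore have no share to be set against. Over all genes tested, 13.3% were higher in both mutant libraries and 16.1% lower in both.

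**Figure D2:**
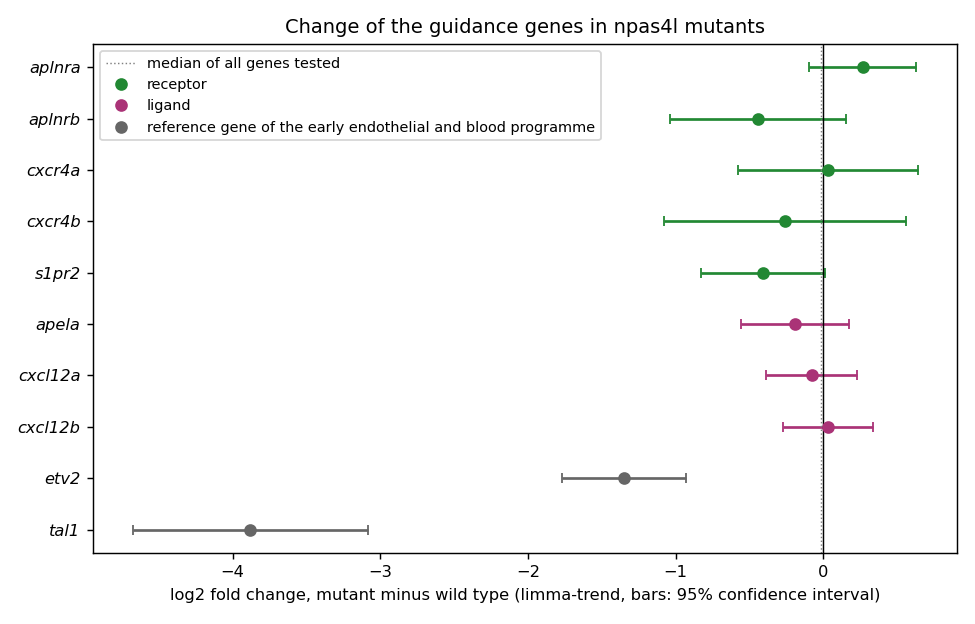
Log2 fold change, mutant minus wild type (x axis), of the 5 receptor genes (green), the 3 ligand genes (magenta) and the reference genes etv2 and tal1 (grey). Bars are 95% confidence intervals from limma-trend and the dotted line is the median of all genes tested. The intervals of all 8 guidance genes include 0, and those of etv2 and tal1 do not.

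The chemokine receptor genes rested on few reads, as aplnrb did, and their libraries disagreed within groups. cxcr4a (ENSDARG00000057633, chromosome 6, 12687144 to 12688869, plus strand) encodes a receptor used by endoderm cells. It stood at 50 and 98 in the wild-type pair against 79 and 65 in the mutant pair. These values are of whole embryos and cannot be assigned to endoderm. Both mutant libraries lay between the wild-type libraries, and the means were 74.0 ± 33.9 and 72.0 ± 9.90. The log2 fold change was 0.032 ± 0.31, with an interval of -0.58 to 0.64 and a limma adjusted p of 1 (unadjusted p = 0.917). Its sign turned with the library left out, from -0.45 without wild-type replicate 1 to 0.51 without wild-type replicate 2, and was 0.17 without mutant replicate 2. Counting error alone gave 95% exact Poisson intervals of 36.7 to 66.8 in wild-type replicate 1 and 80.4 to 118 in wild-type replicate 2, which did not overlap. The limma standard error, drawn toward genes of similar value, does not carry this spread.

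cxcr4b (ENSDARG00000041959, chromosome 9, 10721532 to 10723557, plus strand) encodes a receptor used by germ cells and the lateral line primordium. It stood at 37 and 52 in the wild-type pair against 43 and 31 in the mutant pair. These whole-embryo values cannot be assigned to those cells. The groups overlapped, with means of 44.5 ± 10.6 and 37.0 ± 8.49. The log2 fold change was -0.26 ± 0.41, with the widest interval of the 8, -1.08 to 0.56, and a limma adjusted p of 1 (unadjusted p = 0.533). Without each library in turn it ran from -0.50 to -0.018, and without mutant replicate 2 it was -0.028. At this depth a halving of cxcr4b lies inside the interval and could not be told from no change. The same held for aplnrb, whose lower bound was -1.03.

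The Cxcl12 ligand genes held the most reads of the 8 and had the narrowest intervals. cxcl12a (ENSDARG00000037116, chromosome 13, 30673917 to 30689265, plus strand) stood at 509 and 462 in the wild-type pair against 434 and 486 in the mutant pair, and the groups overlapped. Its log2 fold change was -0.078 ± 0.16, with an interval of -0.39 to 0.23 and a limma adjusted p of 1. cxcl12b (ENSDARG00000055100, chromosome 22, 27067102 to 27083041, minus strand) stood at 490 and 519 in the wild-type pair against 541 and 492 in the mutant pair, which also overlapped, though with upper-quartile and median-ratio scaling both mutant libraries were higher. Its log2 fold change was 0.033 ± 0.15, with an interval of -0.27 to 0.34 and a limma adjusted p of 1. Without mutant replicate 2 the log2 fold change was -0.16 for cxcl12a and 0.10 for cxcl12b. As a fold, the intervals ran from 0.765 to 1.17 for cxcl12a and from 0.829 to 1.26 for cxcl12b, so for these ligand genes changes beyond those bounds lay outside the intervals.

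The ratio of cxcr4a to cxcl12b was 0.102 and 0.189 in the wild-type pair against 0.146 and 0.132 in the mutant pair. That of cxcr4b to cxcl12a was 0.0727 and 0.113 in the wild-type pair against 0.0991 and 0.0638 in the mutant pair. In both pairs the mutant and wild-type libraries overlapped. Between paralogues, cxcr4a over cxcr4b was 1.35 and 1.88 in the wild-type pair against 1.84 and 2.10 in the mutant pair, and cxcl12a over cxcl12b was 1.04 and 0.890 against 0.802 and 0.988. Neither pair of groups was separated.

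Receptors and ligands were then compared as groups. The 5 receptor genes had log2 fold changes from -0.44 to 0.27 with a median of -0.26, and the 3 ligand genes from -0.19 to 0.033 with a median of -0.078. The median of all genes tested was -0.018, and that of the genes whose mean value reached 50 was -0.054. The receptor median depended on single libraries and was -0.018 without wild-type replicate 2. It was -0.028 when mutant replicate 2 was left out and -0.48 when mutant replicate 1 was. Summed over the 5 genes, receptor values were 580 and 610 in the wild-type pair against 593 and 536 in the mutant pair. Summed over the 3 genes, ligand values were 1249 and 1238 in the wild-type pair against 1208 and 1189 in the mutant pair. This separation was lost with upper-quartile and median-ratio scaling, where mutant replicate 2 had the highest ligand sum, 1271 and 1268. Receptors over ligands came to 0.464 and 0.493 in the wild-type pair against 0.491 and 0.451 in the mutant pair. The groups thus overlapped in the ratio of the 2 sums. The receptor sum joins genes of both directions, with means in wild type and mutants of 215.5 and 259.5 for aplnra and 176 and 132.5 for s1pr2. S1pr2 binds a lipid, so none of the 3 ligand genes is its partner, and this ratio is not a balance of matched receptors and ligands. By pathway, aplnra plus aplnrb over apela was 1.25 and 1.12 against 1.42 and 1.49, higher in both mutant libraries, and again involved aplnra. For cxcr4a plus cxcr4b over cxcl12a plus cxcl12b it was 0.0871 and 0.153 against 0.125 and 0.0982, where the groups overlapped. These sums weigh genes by their values and say nothing of protein.

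**Figure D3:**
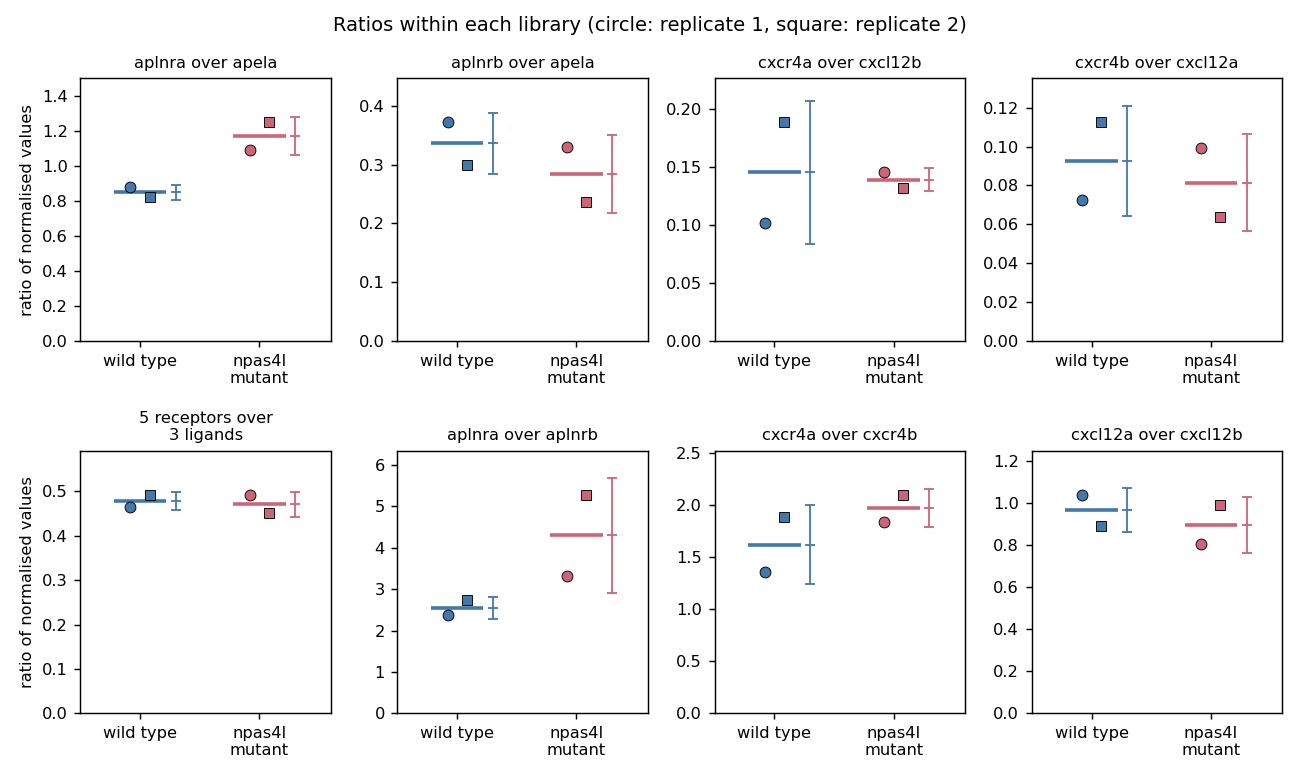
Ratio of normalised values within each library (y axis, starting at 0) for receptors over ligands and for paralogues, in wild type (blue) and npas4l mutants (red). Thick lines are group means and bars the SD of 2 libraries. aplnra over apela and aplnra over aplnrb are higher in both mutant libraries, and the groups overlap in the other 6 panels. The 2 separated ratios share aplnra, so they are not independent, and no ratio was tested. No share of separated ratios over other genes was taken.

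The 4 receptor genes aplnra, aplnrb, cxcr4a and cxcr4b span between 1708 and 2087 bases in the table, so their levels could be compared per kilobase of span, any intron included. In wild type, aplnra stood at 126 ± 3.73 normalised units per kilobase, cxcr4a at 42.9 ± 19.7, aplnrb at 40.7 ± 5.42 and cxcr4b at 21.96 ± 5.24. In mutants the values were 152 ± 3.73 for aplnra, 41.7 ± 5.74 for cxcr4a, 30.4 ± 9.15 for aplnrb and 18.3 ± 4.19 for cxcr4b. aplnra led in every library, and in wild type cxcr4a and aplnrb, neighbours in this order, did not differ beyond their spread. In the mutant pair both values of cxcr4a, 45.8 and 37.7, lay above both of aplnrb, 36.9 and 24.0. The other members span 5954 to 53171 bases, so that span is a poor stand-in for transcript length, and were not ranked. The 8 genes lie on 8 different chromosomes, are all protein-coding and overlap no other gene of the table.

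By comparison, the endothelial and blood regulators etv2 and tal1 fell far more in the same libraries. etv2, whose ETS protein drives endothelial fate, stood at 294 and 244 in the wild-type pair against 127 and 86 in the mutant pair, or -1.35 ± 0.21 as log2 fold change (limma adjusted p = 2.50e-05). tal1, a bHLH factor of blood and endothelial precursors, stood at 166 and 163 against 13 and 8, or -3.88 ± 0.40 as log2 fold change (limma adjusted p = 3.27e-11). None of the 8 guidance genes had an interval that reached the estimate of either gene, the lowest bound being -1.08 for cxcr4b. The interval of etv2, -1.77 to -0.93, did overlap those of cxcr4b and aplnrb, whose lower bounds were -1.08 and -1.03.

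In bulk RNA, fewer cells of a type and less RNA per cell cannot be told apart, so markers of the tissues that use these signals were summed beside the members. Haemangioblast markers (8 of 8 tested) summed to 1424 and 1408 in the wild-type pair against 750 and 671 in the mutant pair. The list includes etv2 and tal1, and 4 of the 8 passed as lower, where 0.048% of all genes tested passed in either direction. In 7 of the 8 the groups did not overlap, all lower in mutants, against 29.4% of all genes tested. The fall was uneven, with fli1a at 112 and 95 against 85 and 101, and gata2a at 504 and 524 against 425 and 401. Cardiac mesoderm markers (7 of 8 tested) summed to 1251 and 1273 against 1233 and 1053, endoderm markers (5 of 6 tested) to 866 and 956 against 928 and 837, and primordial germ cell markers (3 of 6 tested) to 88 and 127 against 86 and 146. No tested gene of these last 3 lists passed. Groups did not overlap in 4 of the 7 tested cardiac genes, 2 higher and 2 lower, against 29.4% of all genes tested. The cardiac sum therefore joins genes of both directions. The endoderm sum came mostly from foxa2, foxa3 and hnf1ba. Whether these 3 genes were restricted to endoderm in the whole embryos was not examined, so the sum cannot be read as an amount of endoderm. sox17 stood at 12 and 14 in the wild-type pair against 7 and 24 in the mutant pair. nkx2.5, a defining heart gene, stood at 3 and 11 in the wild-type pair against 2 and 8 in the mutant pair, and sox32, a defining endoderm gene, at 0 and 4 against 2 and 11, both too low to test. The haemangioblast, cardiac and endoderm sums were lowest in mutant replicate 2, and the germ cell sum was highest there. The part of tissue amounts in the values of the guidance genes was not tested.

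The wider pathway was read from a list of 55 other apelin, chemokine and S1P genes, of which 41 were in the table and 29 reached the minimum value. 0 of the 29 passed in either direction, 0 had an unadjusted p under 0.05, and 0 passed with limma-voom. Their median log2 fold change was -0.052, against -0.018 for all genes tested and -0.054 for the 10576 genes whose mean value reached 50. Groups did not overlap in 9 of the 29, 3 higher and 6 lower, against 29.4% of all genes tested.

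Of ligands and ligand supply, 5 genes were tested. spns2, the transporter that exports S1P and acts upstream of s1pr2 in heart migration, stood at 204 and 191 in the wild-type pair against 225 and 286 in the mutant pair. Both mutant libraries were higher, by a log2 fold change of 0.36 ± 0.19 (limma unadjusted p = 0.0587, adjusted p = 1), which was 0.19 without mutant replicate 2. sphk2, a kinase that makes S1P, was lower in both mutant libraries, at 179 and 163 against 130 and 153, with a log2 fold change of -0.27 ± 0.21 (limma adjusted p = 1), and its groups overlapped with upper-quartile and median-ratio scaling. apln, another ligand of the apelin receptors, stood at 29 and 31 against 53 and 34, a log2 fold change of 0.49 ± 0.44 at a low value. sgpl1, the lyase that breaks S1P down, stood at 106 and 88 against 89 and 129, a log2 fold change of 0.15 ± 0.25, and its groups overlapped.

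Of the other receptors, 5 genes of the list were tested. A further apelin receptor gene outside the list, aplnr2, named after its values were seen, stood at 70 and 55 against 96 and 38, with a log2 fold change of -0.036 ± 0.34. ackr3b, a scavenger receptor that removes Cxcl12a, stood at 247 and 221 in the wild-type pair against 252 and 279 in the mutant pair, which as a log2 fold change was 0.18 ± 0.18. Its paralogue ackr3a stood at 11 and 13 against 8 and 28, where mutant replicate 2 alone was high. s1pr5a, another S1P receptor, stood at 170 and 146 against 146 and 124, with groups that touched on the deposited scale and separated with the other scalings, and a log2 fold change of -0.23 ± 0.22, and s1pr1, the S1P receptor of blood vessels, at 22 and 36 against 28 and 35. The 7 listed receptors under the minimum value were not tested, and ccr7 among them was listed at 0 in 3 libraries and at 5 in mutant replicate 2.

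Of the G proteins, arrestins, receptor kinases and RGS proteins, 19 genes were tested, with a median log2 fold change of -0.086. gna13a and gna13b encode the G protein subunits through which S1pr2 acts in heart migration. gna13a stood at 295 and 336 in the wild-type pair against 296 and 269 in the mutant pair, and gna13b at 160 and 207 against 184 and 192. Their log2 fold changes were -0.16 ± 0.17 and 0.046 ± 0.20, and their groups overlapped, though those of gna13a separated with upper-quartile and median-ratio scaling. rgs3a, which encodes a regulator that shortens G protein signals, stood at 98 and 92 against 61 and 70, lower in both mutant libraries with a log2 fold change of -0.53 ± 0.28 (limma unadjusted p = 0.0631, adjusted p = 1). gna12a, a relative of the gna13 genes, stood at 199 and 146 against 132 and 140, with a log2 fold change of -0.32 ± 0.22, and its groups overlapped with both of those scalings.

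**Figure D4:**
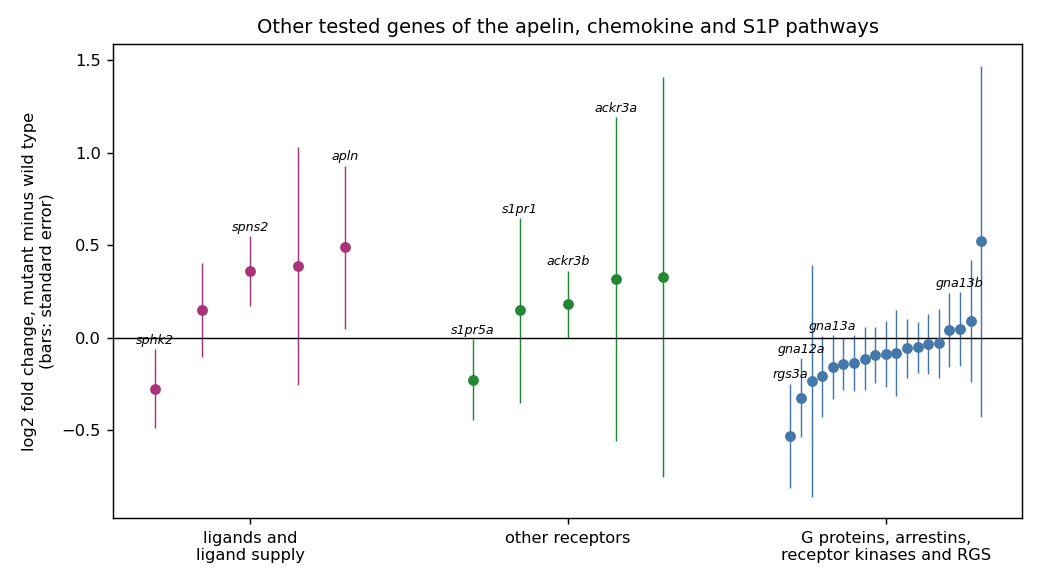
Log2 fold change, mutant minus wild type (y axis), of the 29 tested genes of the pathway list, ordered within 3 roles on the x axis, with standard errors from limma-trend as bars. Labels mark the genes described in the text, other than sgpl1, which is plotted without a label. 0 genes passed the test, and the longest bars belong to genes with low values.

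The genes whose pattern over the 4 libraries was most like that of aplnrb, the member with the largest log2 fold change in size, were mtmr2, sgcb and mmaa. The measure was the Euclidean distance between mean-centred log2 values, among 5287 genes with a mean value within 2-fold of that of aplnrb, and it was 0.055, 0.085 and 0.094 in the same order. mtmr2 stood at 99 and 78 in the wild-type pair against 79 and 51 in the mutant pair. With 4 libraries, 108 genes lay within a distance of 0.25, so the likeness picks out no small group.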

How the data were processed

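RNA was sequenced from 4 libraries of whole embryos, 2 per genotype. Per the labels' protocols, total RNA came from a miRNeasy micro kit, and 10 ng was made into libraries with a SMARTer stranded total RNA kit, read as single 75-base reads. STAR 2.4.0a, featureCounts 1.4.5-p1, FastQC and DESeq2 are named, with builds GRCz10 and danRer10, per the submitters' processing notes. No source used here says whether the counting used strand. What the authors deposited is a score: gene counts that the authors scaled by 1 factor per library and rounded, as the spacing of the whole numbers shows, not raw counts. Counting intervals use reads estimated from that spacing, cover counting error only and are approximate.

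Values were analysed as log2(value + 1) with limma-trend (R 4.3.3, limma 3.58.1), fitting genotype alone. Fold changes on this scale understate the change of low genes. The prior had 83.6 degrees of freedom against 2 from the libraries, so standard errors, intervals and p-values reflect mostly the trend over genes of similar value. The code was tested on simulated data. Tables and figures used Python 3.11.15, pandas 2.3.3, SciPy 1.17.1 and Matplotlib 3.10.9.

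The 8 genes and all lists were chosen with earlier results of these data known, so no p-value was computed over a list. Genes named outside the 8 were fixed by rule, with the exceptions below. They were the 2 with the smallest p in each role of the pathway list and any past the test. Also fixed were apln, ackr3a, ackr3b, spns2, s1pr1, gna13a and gna13b. The genes ccr7, sgpl1 and aplnr2 and the markers nkx2.5, sox32, sox17, foxa2, foxa3, hnf1ba, fli1a and gata2a were named after their values were seen. Each marker list was summed over its members in the table. Genes were found by their symbol in the table, except 1 (grk3) found through its gene ID. The cranial placode, presomitic, notochord and hatching gland, and neural plate markers also fixed held 0 genes past the test. Their median log2 fold changes were -0.21, -0.15, -0.26 and -0.017. Groups did not overlap in 3 of 7, 2 of 6, 1 of 6 and 0 of 6 tested genes in that order, against 29.4% of all genes tested. An unadjusted limma p under 0.05 was found for 2 notochord and hatching gland genes, both lower, and 1 placode gene, higher. Over all genes tested that share was 3.75%. The mutated gene npas4l was not analysed here.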

Additional observations from a re-analysis of the deposited data

How the results depend on the processing

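0 of the 8 guidance genes and 0 of the pathway genes passed under any of the 11 alternatives (cxcr4b fell below a minimum mean of 50, which left 7). The lowest adjusted p of a guidance gene was 0.482, for aplnrb without mutant replicate 1. aplnra, aplnrb, cxcr4b, s1pr2 and apela kept their sign throughout. Over all genes 8 passed, with 14 after upper-quartile and 13 after median-ratio scaling. With each library left out in turn, a single library was taken to vary as the complete pair did, and genes tied in that pair were not tested; the counts ran from 6 to 274, at 7 and 6 without wild-type replicates 1 and 2, 274 without mutant replicate 1 and 22 without mutant replicate 2. In these fits cxcl12a ran from -0.16 to 0.0032, cxcl12b from -0.036 to 0.10 and cxcr4a from -0.45 to 0.51. The receptor median ran from -0.48 to -0.018 and the ligand median from -0.15 to -0.0086; the ligand median was -0.027 with upper-quartile scaling, -0.024 with median-ratio scaling and -0.032 with limma-voom. The pathway median ran from -0.089 to -0.011 without each library, and was 0.091 with no filter, -0.084 with a mean value of at least 50, -0.00094 with upper-quartile scaling, 0.0022 with median-ratio scaling and 0.0064 with limma-voom; the cause was not tested. No scaling moved the median of all genes by over 0.1. With the replicate block 9 genes passed, the members' log2 fold changes were the same and their lowest unadjusted limma p was 0.0602. Deviations of same-numbered libraries correlated at 0.009 over genes. No pairing was detected, but this 1 correlation, which includes genes of low value, cannot show that there was none.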
